A study of Mus musculus with 2 samples.

Results

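Nuclear-encoded genes of the respiratory chain were examined in sorted epithelial cells of the mouse cornea. They were defined as all genes whose symbol starts with Nduf, Uqcr, Atp5, Cox4, Cox5, Cox6, Cox7 or Cox8, without symbols that carry -ps. This gave 89 of the 31053 genes in the deposited matrix, spread over 19 chromosomes in GENCODE M21 (GRCm38). They were 44 genes of complex I including 8 assembly factors, 8 of complex III, 20 of complex IV and 17 of complex V. Atp5o was listed under 2 gene IDs, so the 89 entries hold 88 symbols.

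The cells came from CycB1-GFP reporter mice, whose GFP labels cycling cells. Cyclin B1 is a protein that accumulates before mitosis. All samples shared this genotype and no unsorted or GFP- group was analysed here, and the labels name neither the age of the mice nor the promoter of the reporter. Overnight Dispase freed the epithelium, trypsin dissociated it, and live GFP+ cells were sorted into 10x Chromium 3' v3 libraries, per the labels' protocols. The labels give 1 group of 2 replicates and do not say whether these came from separate animals. Barcode suffixes separated 2 libraries, which cannot be tied to the replicate numbers and are called library 1 and library 2.

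Library 1 held 3458 barcodes with 19001107 UMIs (unique molecular identifiers, each counting 1 captured RNA molecule), and library 2 held 3294 barcodes with 18030874 UMIs. Cells with at least 500 genes and under 20% mitochondrial UMIs were kept, 3187 and 3001 of them, with medians of 5571 and 5886 UMIs. The libraries shared 5 barcode sequences. Corneal epithelial markers (10 genes) summed to 36910 and 40900 CPM (UMIs per 1000000 UMIs), and 0 of the 10 were at 0. Markers of vascular endothelium summed to at most 0.266 CPM, with Kdr and Cdh5 at 0, and those of keratocytes or fibroblasts to 5.54 and 12.2 CPM, with Kera, Col1a1 and Col1a2 at 0. Conjunctival markers summed to 381 and 828 CPM, with Muc5ac at 0. Immune markers summed to 11.7 and 36.0 CPM and those of corneal endothelium to 18.4 and 33.0 CPM. Markers of nerve or Schwann cells summed to 56.9 and 70.8 CPM, and those of melanocytes to 3.52 and 5.79 CPM.

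The respiratory chain is a set of protein complexes in the inner mitochondrial membrane. Complex I takes electrons from NADH, complex III passes them to cytochrome c, complex IV delivers them to oxygen, and complex V, the ATP synthase, uses the proton gradient they build to make ATP. Most subunits are encoded in the nucleus, while a small core of each of these complexes is encoded by mitochondrial DNA (the mt- genes). The corneal epithelium has no blood vessels and is known to rely largely on glycolysis, and its cells move from the limbus, where Krt15 is high, to the cornea, where Krt12 marks the differentiated lineage.

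Cells were therefore ordered by the share Krt12/(Krt12+Krt15) of their UMIs for these keratins, where the sum was at least 5. The range under 0.4 held 663 and 959 cells, 0.4 to 0.8 held 161 and 164, and above 0.8 held 2304 and 1821 in libraries 1 and 2. Too few keratin UMIs left 59 and 57 cells without a range. The ranges are parts of a continuous score and not cell types. Within 0.05 of the lower limit lay 36 and 29 cells, and within 0.05 of the upper limit 73 and 78.

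Promoters of 71 of the 88 member symbols were matched in RefSeq (GRCm38.p6, 250 bases before to 50 after the start site) and searched on both strands for 5 motifs. The site of NRF1 (GCGCA, any base, then GCGC) occurred in 22.5% of member promoters, against 11.3% of 8704 promoters of genes tested below and 4.78% of all 27025. CCGGAAG, the core bound by ETS factors such as GABP, occurred in 21.1%, against 19.7% and 9.12%, and AAGATGGCG, the site of YY1, in 9.86%, against 3.62% and 1.5%. TGACGTCA, the cAMP response element, occurred in 5.63%, against 3.54% and 1.88%, and the E-box CACGTG in 7.04%, against 10.7% and 7.24%. The last bases of CCGGAAG can overlap the first of AAGATGGCG. Matches are letters in a window and show no binding.

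Parts of 4 promoters are shown because the NRF1 letters occur in members that fell, rose or did not pass the test below. All are printed 5' to 3' on the gene's strand, the minus strand for all 4, with NRF1 and ETS matches in capitals. For Cox6a1 the 250 bases before the start site are given (chr5:115348959-115349208). For the others 30 bases around the match are given, at chr5:108434430-108434459 for Atp5k, chr2:36049349-36049378 for Ndufa8 and chr15:102671070-102671099 for Atp5g2. GENCODE M21 starts these genes further upstream than RefSeq, and its 5' UTR annotation covers 23 of the bases printed for Cox6a1, with the ETS match, 19 for Atp5k, 30 for Ndufa8 and 30 for Atp5g2.
Cox6a1: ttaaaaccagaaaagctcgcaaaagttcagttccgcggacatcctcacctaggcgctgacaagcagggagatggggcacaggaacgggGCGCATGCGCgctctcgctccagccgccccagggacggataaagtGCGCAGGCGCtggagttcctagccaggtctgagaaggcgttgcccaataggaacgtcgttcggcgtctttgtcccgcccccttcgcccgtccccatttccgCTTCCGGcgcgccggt
Atp5k: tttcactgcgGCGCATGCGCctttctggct
Ndufa8: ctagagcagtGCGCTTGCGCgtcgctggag
Atp5g2: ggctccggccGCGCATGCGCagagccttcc
Cox6a1 and Atp5k were lower at a high Krt12 share, Ndufa8 was higher, and Atp5g2 did not pass the test. The NRF1 letters stood in 5 of the 30 matched promoters of members that fell, 1 of 4 that rose and 10 of 34 that passed neither way. ETS letters stood in 9 of 30, 0 of 4 and 6 of 34.

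The first question was how much of a cell's RNA these genes took up along the Krt12 share. In library 1 the 89 genes made up 2.54% of all UMIs under 0.4 (95% exact binomial interval 2.53 to 2.56%), 2.38% from 0.4 to 0.8 and 2.16% above 0.8 (2.15 to 2.17%). In library 2 the shares were 2.43% (2.42 to 2.45%), 2.19% and 2.05% (2.05 to 2.06%). The order of the ranges was the same in both libraries, and the intervals cover counting error only. The log2 ratio of the highest to the lowest range was -0.24 ± 0.0060 (SD, n = 2 libraries). Single cells spread more widely than these sums: the middle 50% of cells under 0.4 in library 1 lay between 2.21% and 2.77%, and above 0.8 between 1.83% and 2.35%.

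The mt- genes, 13 in all, went in the same direction with a larger log2 ratio in both libraries. They made up 3.54% of UMIs under 0.4 and 2.66% above 0.8 in library 1, and 4.63% and 3.34% in library 2, a log2 ratio of -0.44 ± 0.042 (SD, n = 2 libraries). UMIs of mt- genes per nuclear UMI were 1.39, 1.16 and 1.24 in the 3 ranges of library 1 and 1.90, 1.78 and 1.63 in library 2. The kept cells were chosen partly by their mt- share, so this ratio depends on the limit of 20%.

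**Figure D1:**
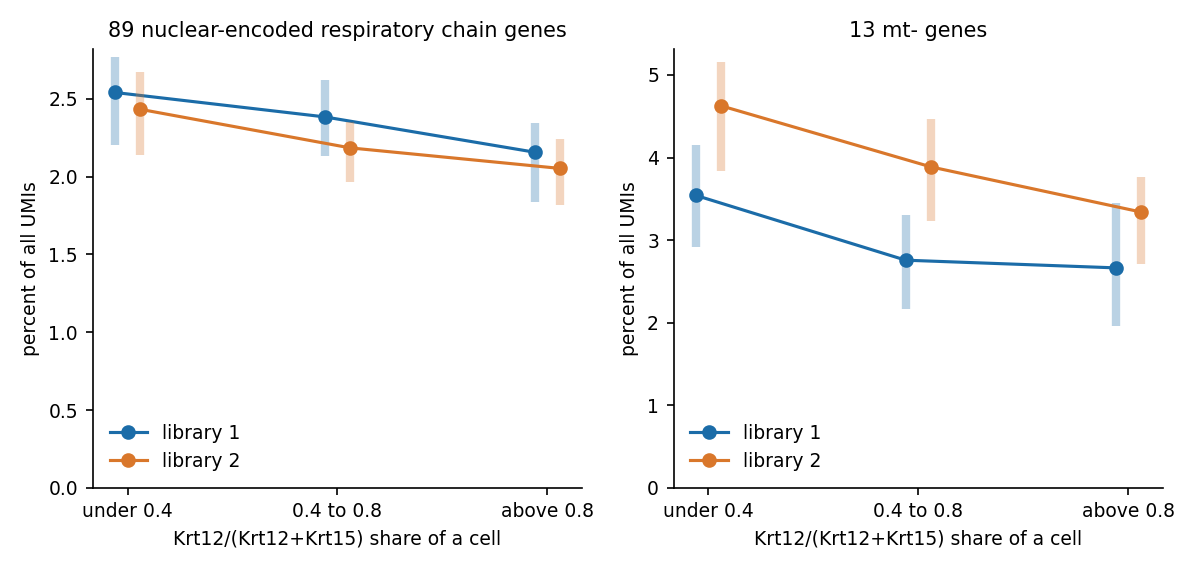
Percent of all UMIs (vertical axis) in the 89 nuclear-encoded members and the 13 mt- genes, by range of the Krt12 share (horizontal axis) and library. Points are sums over cells, pale bars the middle 50% of single cells, and both sets are highest under 0.4, at 2.54% and 2.43% for the members.

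Across cells the relation between the share of the members and the mt- share had no common sign. Spearman's rho was -0.041 over 663 cells under 0.4, 0.13 over 161 cells from 0.4 to 0.8 and -0.39 over 2304 cells above 0.8 in library 1. In library 2 it was -0.11 over 959, -0.13 over 164 and -0.046 over 1821 cells, and over all kept cells it was -0.20 in library 1 and 0.10 in library 2. The member share against the total UMIs of a cell gave 0.32, 0.15 and 0.46 in the 3 ranges of library 1 and 0.21, 0.31 and 0.22 in library 2. These values are descriptions, since both shares are divided by the same total.

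For tests, UMIs were summed per library and range and compared with edgeR's quasi-likelihood test, with library as a block, over 11138 genes. Of the 89 members 82 had enough UMIs to be tested. Above 0.8, 39 members were lower and 4 were higher than under 0.4 (adjusted p under 0.05), which is 47.6% and 4.88% of those tested. Over all genes tested, 16.9% were lower and 15.6% were higher. The median log2 fold change of the 82 was -0.20, against 0.0055 over all genes, and 63 of the 82 were below 0 in both libraries while 11 were above 0 in both. Of all 11138 genes tested, 4177 were below 0 in both and 4219 above 0 in both.

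Shorter lists resulted without the block and with the other tool. Without the library block 9 members were lower and 0 higher (2 higher at an unadjusted p under 0.05), and DESeq2 called 18 lower and 0 higher (2 at an unadjusted p under 0.05), all calls being among the 39. Over all 11138 genes tested, 864 were lower and 687 higher without the block, and 983 and 792 with DESeq2. Each library gives a sum in every range, which is where the pairing by library comes from. The RNA quality set (Gm42418, AY036118, Lars2 and Malat1) summed to 16230 and 20640 CPM under 0.4 and 26080 and 19690 CPM above 0.8, and its part in these results was not tested.

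The lowest range also held cells with conjunctival markers. Conjunctival markers summed to 1249 and 2408 CPM under 0.4, against 128 and 155 CPM above 0.8, and 244 and 431 of the cells under 0.4 had at least 2 UMIs of Krt4 and Krt13 together. The members made up 2.63% and 2.52% of UMIs in those cells and 2.47% and 2.33% in the other cells of the range. Without all cells that had these 2 UMIs, a choice made after the data were seen, 31 members were lower and 4 higher, and 34 of these 35 calls were among the 43. Over all 10190 genes tested in that setting, 1425 were lower and 1383 higher. Immune markers summed to 2.22 and 38.4 CPM under 0.4 and 0.361 and 1.91 CPM above 0.8, and their part was not tested.

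**Figure D2:**
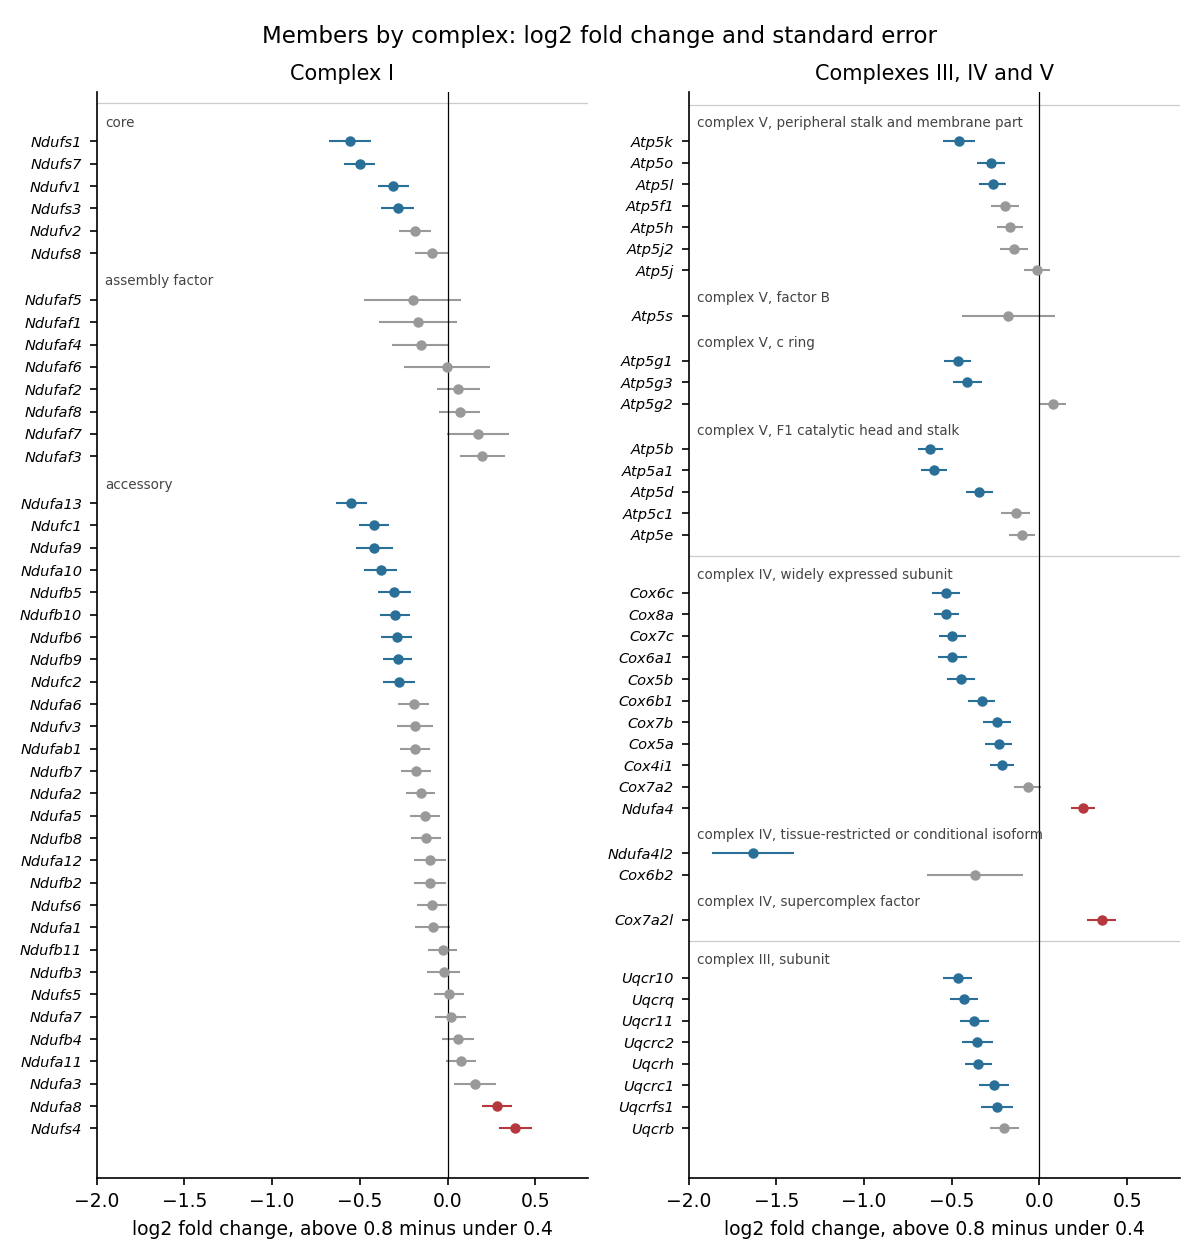
Log2 fold change (above 0.8 minus under 0.4, edgeR) of 81 tested members with its standard error (derived from the F value of the test), grouped by complex and role. Blue points were lower and red points higher at an adjusted p under 0.05, grey points did not pass; 38 are blue and 4 red.

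In complex V 8 of 16 tested members were lower and 0 higher (0 higher also at an unadjusted p under 0.05 and with DESeq2), including the 2 largest falls among members with a mean of at least 20 CPM, Atp5b and Atp5a1. DESeq2 called 6 of the 16 lower. Atp5b encodes the catalytic beta subunit of the F1 head and lies on chromosome 10 at 128083273 to 128090391. Its normalised level was 898 and 858 CPM under 0.4 and 576 and 563 CPM above 0.8 in libraries 1 and 2, with 762 and 696 CPM between. Both lower values lay far below both upper ones, and the log2 fold change was -0.62 (SE 0.072, edgeR adjusted p 4.0e-08). Atp5a1, the alpha subunit that alternates with beta in the head, went from 612 and 554 CPM to 398 and 371 CPM (log2 fold change -0.60, SE 0.076, edgeR adjusted p 2.36e-07). Atp5d, in the central stalk, also fell (-0.34), while Atp5c1 (-0.14) and Atp5e (-0.10) did not pass.

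Of the 7 tested entries of the peripheral stalk and membrane part, Atp5k, Atp5l (-0.27) and the well-counted Atp5o entry fell. Atp5k, the small membrane subunit e, went from 197 and 189 CPM to 160 and 124 CPM (log2 fold change -0.46, SE 0.091, edgeR adjusted p 0.000212). Its difference was -0.30 in library 1 and -0.61 in library 2. Atp5j, a coupling factor, stood at 534 and 517 CPM under 0.4 and 520 and 521 CPM above 0.8, and Atp5h, subunit d, had a log2 fold change of -0.17, and neither passed. Atp5f1, Atp5j2 and Atp5s, the factor B gene, did not pass either.

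The c ring, the rotor in the membrane, is encoded by Atp5g1, Atp5g2 and Atp5g3, whose precursors differ but are processed to the same mature protein. Over the last 228 coding bases, Atp5g1 and Atp5g2 differed at 34 positions, Atp5g1 and Atp5g3 at 46 and Atp5g2 and Atp5g3 at 49. The last 90 coding bases from GENCODE M21 transcripts are shown because these genes are told apart by such bases and their downstream 3' ends. Capitals mark the 24 positions at which the genes are not all alike.
Atp5g1: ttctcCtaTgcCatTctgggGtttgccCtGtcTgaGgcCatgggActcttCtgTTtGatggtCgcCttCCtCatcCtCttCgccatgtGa
Atp5g2: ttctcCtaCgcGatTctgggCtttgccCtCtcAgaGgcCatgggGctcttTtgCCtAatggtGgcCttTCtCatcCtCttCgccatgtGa
Atp5g3: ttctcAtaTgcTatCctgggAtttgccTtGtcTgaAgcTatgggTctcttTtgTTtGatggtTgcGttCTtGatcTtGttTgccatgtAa
Atp5g1 went from 628 and 540 CPM under 0.4 to 440 and 403 CPM above 0.8 (log2 fold change -0.47, SE 0.077, edgeR adjusted p 1.66e-05). Atp5g3 went from 327 and 294 CPM to 241 and 226 CPM (-0.41, SE 0.082, edgeR adjusted p 0.000204). Atp5g2 stood at 692 and 673 CPM under 0.4 and 721 and 719 CPM above 0.8 and did not pass (0.08, SE 0.071, edgeR adjusted p 0.451). The difference between the fold changes of these genes was not tested.

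Complex IV, cytochrome c oxidase, had 14 of its 20 members tested, of which 10 were lower and 2 higher. As shares of those tested this was 71.4% and 14.3%, against 16.9% and 15.6% of all genes. Cox6c went from 695 and 758 CPM under 0.4 to 525 and 481 CPM above 0.8, with 582 and 541 CPM between (log2 fold change -0.53, SE 0.078, edgeR adjusted p 2.46e-06). Cox8a, a small subunit of the widely expressed form, went from 877 and 824 CPM to 624 and 556 CPM (-0.53, SE 0.072, edgeR adjusted p 7.42e-07). In both genes the 2 libraries kept the same order of ranges, with no overlap between the lowest and the highest range. Cox7c (-0.50), Cox6a1 (-0.50), Cox5b (-0.45) and Cox6b1 (-0.33) were lower as well.

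Smaller falls were found for Cox7b (-0.24), Cox5a (-0.23) and Cox4i1 (-0.21), the subunit through which ATP is known to inhibit the enzyme. Cox4i1 stood at 1013 and 1011 CPM under 0.4 and at 894 and 853 CPM above 0.8 (SE 0.070, edgeR adjusted p 0.0182). Cox7a2 had 545 and 475 CPM under 0.4 and 516 and 457 CPM above 0.8 and did not pass (-0.07).

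The complex IV genes that were higher were Ndufa4 and Cox7a2l. Ndufa4 carries a complex I name but is now placed in complex IV, and lies on chromosome 6 at 11900292 to 11907497. It was at 1705 and 1179 CPM under 0.4, 2019 and 1203 CPM between and 2161 and 1318 CPM above 0.8 (log2 fold change 0.25, SE 0.067, edgeR adjusted p 0.00445). The difference was 0.34 in library 1 and 0.16 in library 2, and the libraries lay further apart than the ranges. It did not pass without the library block (adjusted p 0.721) or with DESeq2 (0.228). Without the cells with Krt4 or Krt13 its log2 fold change was 0.62 (edgeR adjusted p 5.85e-07). Its paralog Ndufa4l2, known as a target of the hypoxia factor HIF-1, went the other way, from 18.05 and 31.5 CPM to 8.35 and 7.30 CPM (log2 fold change -1.63, SE 0.23, edgeR adjusted p 3.08e-05). That was the lowest fold change of the 82, on sums of 65 and 161 UMIs under 0.4 and 112 and 85 above 0.8.

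Cox7a2l, a relative of Cox7a2 that joins complexes III and IV into supercomplexes, lies on chromosome 17 at 83501918 to 83517330. It was at 374 and 350 CPM under 0.4 and 435 and 492 CPM above 0.8 (log2 fold change 0.35, SE 0.083, edgeR adjusted p 0.00122). The values of both libraries above 0.8 exceeded both values under 0.4. Without the library block its adjusted p was 0.122, and with DESeq2 0.0776.

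**Figure D3:**
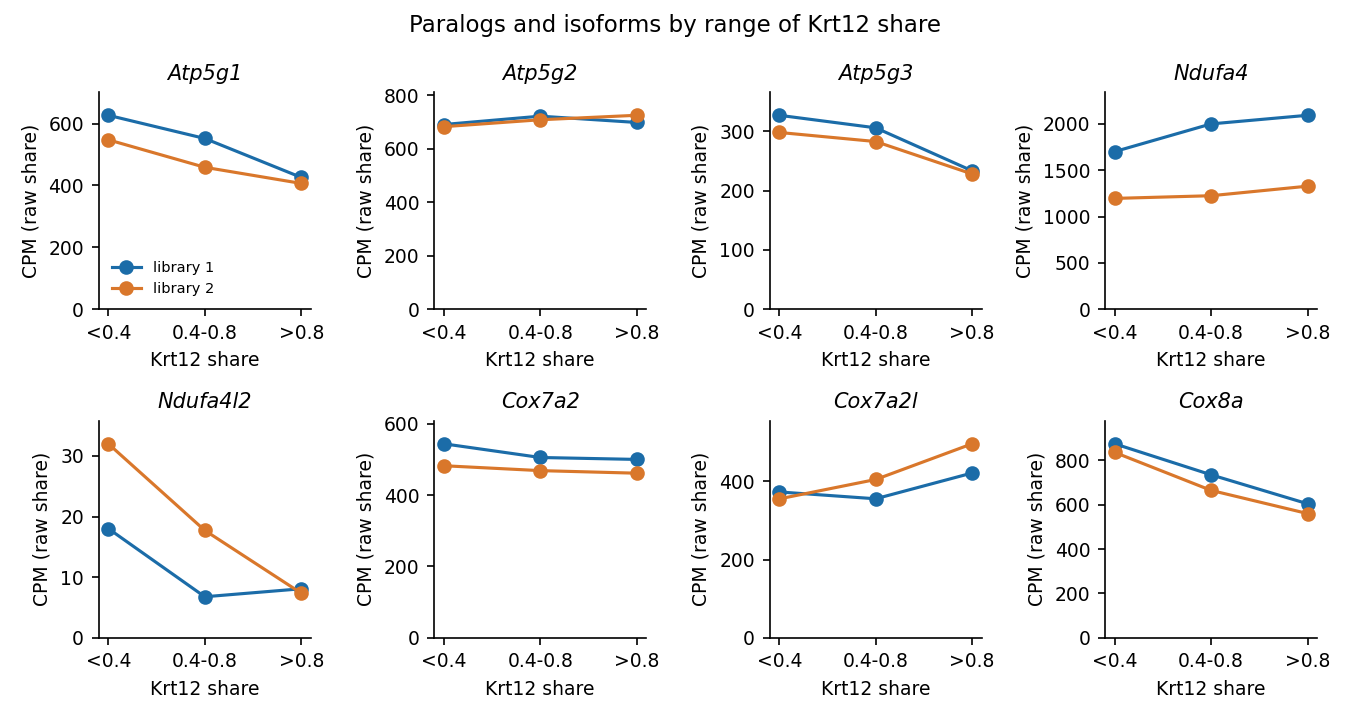
CPM as the raw share of all UMIs (vertical axes, each from 0) for 8 members in the 3 ranges of Krt12 share, by library. Atp5g1, Atp5g3, Ndufa4l2 and Cox8a are lower above 0.8 than under 0.4 in both libraries, Ndufa4 and Cox7a2l are higher, and Atp5g2 and Cox7a2 did not pass the test.

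Isoforms known from heart, muscle, lung or testis had few UMIs. Cox8b, Cox8c and Cox7b2 had 0 UMIs in the kept cells of either library, where 3 UMIs are taken as the limit that a count of 0 allows. Cox6a2 had 0 and 1 UMIs, Cox4i2 5 and 3, and Cox7a1 26 and 24. Cox6b2, the testis form of Cox6b, had 120 and 224 UMIs and had enough to be tested. Its fold change did not pass (-0.37), with -1.10 in library 1 and 0.20 in library 2. The second Atp5o entry had 1 and 2 UMIs.

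Complex III, which passes electrons to cytochrome c, was lower in 7 of its 8 members, and the eighth, Uqcrb, had a log2 fold change of -0.20 (edgeR adjusted p 0.0604). DESeq2 called 2 of the 8 lower and 0 higher. The 7 lower in edgeR were 87.5%, against 16.9% of all genes tested. Uqcr10, a small accessory subunit on chromosome 11 at 4701973 to 4704342, went from 368 and 314 CPM to 261 and 232 CPM (log2 fold change -0.47, SE 0.082, edgeR adjusted p 3.83e-05). Uqcrq (-0.43), Uqcr11 (-0.37), Uqcrc2 (-0.36), Uqcrh (-0.35), Uqcrc1 (-0.26) and the Rieske iron-sulfur protein Uqcrfs1 (-0.24) followed. All 8 were below 0 in both libraries.

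Complex I, the largest, had 14 of its 44 members lower and 2 higher, with a median log2 fold change of -0.15. As shares this was 31.8% and 4.5%, against 16.9% and 15.6% of all genes tested. The core subunits carry the flavin and iron-sulfur clusters or bind quinone. Among them Ndufs1, which holds iron-sulfur clusters, went from 65.5 and 49.9 CPM to 41.4 and 36.7 CPM (log2 fold change -0.56, SE 0.12, edgeR adjusted p 0.00055). Ndufs7 (-0.50), Ndufv1 (-0.31) and Ndufs3 (-0.28) also fell, while Ndufv2 (-0.19) and Ndufs8 (-0.09) did not pass.

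Of the 29 accessory subunits 9 were lower (31.0%) and 2 higher (6.90%), against 16.9% and 15.6% of all genes tested. Besides Ndufa13, the lower ones were Ndufc1, Ndufa9, Ndufa10, Ndufb5, Ndufb10, Ndufb6, Ndufb9 and Ndufc2. Ndufa13, which also has a role in interferon-induced cell death, went from 240 and 244 CPM to 168 and 163 CPM (log2 fold change -0.55, SE 0.090, edgeR adjusted p 1.59e-05). Ndufs4, a late-assembled subunit whose loss causes Leigh-like disease in mice, rose from 113 and 101 CPM to 143 and 135 CPM (0.39, SE 0.093, edgeR adjusted p 0.00166). Ndufa8 rose from 183 and 166 CPM to 226 and 199 CPM (0.28, SE 0.087, edgeR adjusted p 0.0128). Neither rise passed without the library block (adjusted p 0.0792 and 0.299) or with DESeq2 (0.105 and 0.26).

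None of the 8 complex I assembly factors (Ndufaf1 to Ndufaf8) passed the test in either direction (0 at an unadjusted p under 0.05 and 0 with DESeq2), with log2 fold changes between -0.20 and 0.20. Their median was 0.03, and their mean levels ran from 7.26 CPM for Ndufaf5 to 65.3 CPM for Ndufaf8. Standard errors ran from 0.12 for Ndufaf8 to 0.28 for Ndufaf5.

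**Figure D4:**
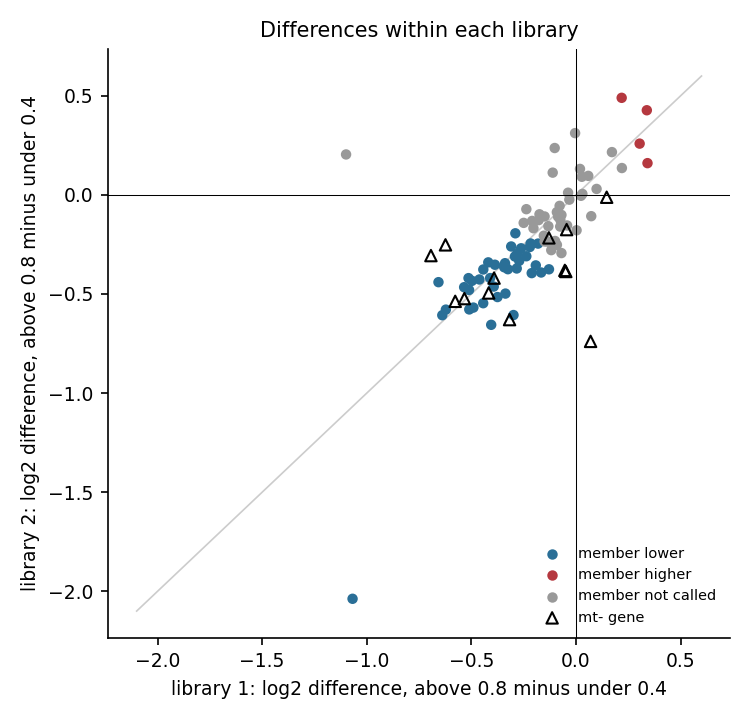
Log2 difference (above 0.8 minus under 0.4) within library 1 (horizontal axis) against library 2 (vertical axis) for the 82 tested members (points) and 13 mt- genes (triangles). All 43 members that passed have the same sign in both libraries, which a test on these same libraries favours. Ndufa4l2 lies farthest out at -1.07 and -2.04.

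The level in the middle range lay between the other ranges in both libraries for 37 of the 82 members, a count not made for all genes. From 0.4 to 0.8 against under 0.4, 6 members were lower (7.32%, edgeR), against 2.6% of all genes, namely Ndufa13, Cox6c, Cox6a1, Cox7c, Cox8a and Atp5b. In that comparison 0 members were higher (edgeR, 0 also at an unadjusted p under 0.05), against 2.95% of all genes. Above 0.8 against 0.4 to 0.8, Ndufs7, Atp5b, Atp5a1, Atp5g3, Cox5b and Cox8a were lower (6 members, against 4.15% of all genes) and Cox7a2l was higher (1 member, against 2.92%). Atp5b and Cox8a fell at both steps, by 0.27 and 0.35 on the log2 scale for Atp5b and by 0.29 and 0.24 for Cox8a.

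Mitochondrially encoded partners were lower in 8 of 13 genes and higher in 0 (0 at an unadjusted p under 0.05 and 0 with DESeq2). DESeq2 called 6 of the 13 lower. The 8 lower in edgeR were 61.5%, against 16.9% of all genes tested. mt-Atp6, the membrane channel subunit of complex V, went from 7988 and 10230 CPM to 5353 and 7048 CPM (log2 fold change -0.56, SE 0.055, edgeR adjusted p 1.92e-09). mt-Co3 (-0.53), mt-Nd6 (-0.52), mt-Co1 (-0.47), mt-Cytb (-0.46), mt-Nd3 (-0.43), mt-Co2 (-0.41) and mt-Nd4 (-0.22) were lower too. mt-Nd1 (-0.11), mt-Nd4l (-0.22), mt-Atp8 (-0.17), mt-Nd5 (-0.35) and mt-Nd2 (0.07) did not pass. For mt-Nd5 the difference was 0.07 in library 1 and -0.74 in library 2.

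Nuclear and mitochondrial parts of a complex differed in how much they moved. For complex V the nuclear members went from 0.798% to 0.641% of UMIs in library 1 and from 0.770% to 0.644% in library 2, and mt-Atp6 with mt-Atp8 from 0.804% to 0.525% and from 1.05% to 0.719%. In complex IV the nuclear members went from 0.796% to 0.712% and from 0.737% to 0.622%, and the mt-Co genes from 1.80% to 1.31% and from 2.22% to 1.54%. That nuclear sum holds Ndufa4, the most abundant member, whose raw level rose from 1702 to 2094 CPM and from 1197 to 1329 CPM. The complex IV ratio without Ndufa4 was not computed. Complex III had nuclear log2 ratios of -0.36 and -0.38 and mt-Cytb ratios of -0.46 and -0.50. Complex I had nuclear ratios of -0.19 and -0.18 and mt-Nd ratios of -0.06 and -0.24.

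Other genes of the pathway were counted from lists by function. Of 9 genes of complex II and the electron carriers, 5 were lower and 0 higher (2 higher at an unadjusted p under 0.05, 0 with DESeq2). DESeq2 called 4 of the 9 lower. The 5 lower in edgeR were 55.6%, against 16.9% of all genes tested. Cyc1, the cytochrome c1 subunit of complex III that the symbol rule leaves out, went from 192 and 192 CPM to 134 and 114 CPM (log2 fold change -0.65, SE 0.096, edgeR adjusted p 4.23e-06). Sdhc (-0.66) and Sdhd (-0.53), the membrane anchors of succinate dehydrogenase, and cytochrome c, Cycs (-0.47), were lower. Etfdh was lower too (-0.50, mean 14.5 CPM).

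Of 23 tested genes of the TCA cycle and pyruvate entry, 13 were lower and 3 higher. Fumarase, Fh1 (-0.63), pyruvate dehydrogenase subunit Pdha1 (-0.60), Idh3g (-0.55), Idh2 (-0.48) and malate dehydrogenase Mdh2 (-0.48) fell. Mpc2, a subunit of the mitochondrial pyruvate carrier, rose from 227 and 224 CPM to 330 and 424 CPM (log2 fold change 0.73, SE 0.090, edgeR adjusted p 1.8e-07). Pdk1, a kinase that switches pyruvate dehydrogenase off, rose from 20.0 and 18.6 CPM to 32.0 and 30.3 CPM (0.69).

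Assembly factors of complexes I, III, IV and V passed in 7 of 35 cases, 4 higher (11.4%) and 3 lower (8.57%), both shares below the 15.6% and 16.9% of all genes tested. Coa3 (0.33), Coa5 (0.40) and Uqcc2 (0.22), factors for complexes IV and III, were higher. The ATP synthase inhibitor Atpif1 (-0.23) and the mitochondrial RNA-binding protein Slirp (-0.34) were lower. Of 20 tested regulators 3 were higher (15%) and 1 lower (5%), again not above the shares of all genes. Tfam, which packages mitochondrial DNA and starts its transcription, rose from 33.9 and 37.4 CPM to 47.8 and 47.1 CPM (log2 fold change 0.41, SE 0.13, edgeR adjusted p 0.0152). The regulator that fell was Ppargc1b, a coactivator of respiratory chain genes (-1.16, mean 6.42 CPM), below the level of 20 CPM used to choose names and named after its value was seen.

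Cell cycle phase gave few calls. Cells were called S, G2/M or G1 from S and G2/M gene lists, and G2/M was compared with S in sums per library. The calls gave 2424 and 2272 G2/M cells, 601 and 502 S cells and 162 and 227 G1 cells in libraries 1 and 2. With scores from scaled values, a choice made after the data were seen, there were 1403 and 1338 G2/M and 1226 and 1119 S cells. The groups therefore depend on the scoring. In that setting 3 of 83 members were higher and 3 lower, against 946 and 1205 of 11600 genes. With the first calls, 2 of 82 members were higher and 2 lower (2.44% each), against 7.38% and 9.71% of all 10549 genes tested. Their median log2 fold change was -0.05. With scaling by total UMIs, 2 members were higher and 1 lower, and over all genes the split of 778 higher and 1024 lower became 1151 and 748. Ndufaf3, a complex I assembly factor, was higher in G2/M, at 38.5 and 45.3 CPM against 20.8 and 18.9 CPM in S (log2 fold change 1.06, SE 0.15, edgeR adjusted p 1.06e-06). Ndufaf2, another assembly factor, was lower, at 45.8 and 35.4 CPM against 55.8 and 53.7 CPM (-0.43, SE 0.11, edgeR adjusted p 0.00764).

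Ndufab1, the mitochondrial acyl carrier protein, was lower in G2/M (-0.27, SE 0.086, edgeR adjusted p 0.0282), and Cox6b2 was higher (1.11, SE 0.30, edgeR adjusted p 0.00839). Cox6b2 averaged 6.14 CPM and was named after its value was seen. Of the mt- genes 0 of 13 passed in edgeR or DESeq2, and 1 was lower at an unadjusted p under 0.05 (edgeR). Without the library block, or with DESeq2, 1 member was higher and 0 lower. Over all 10549 genes tested, 79 were higher and 70 lower without the block, and 159 and 180 with DESeq2. The phase lists themselves differed between the ranges of Krt12 share. Above 0.8, 14 of 43 S genes were higher (32.6%) and 2 lower (4.65%) than under 0.4. Of 54 G2/M genes 2 were higher (3.70%) and 15 lower (27.8%), against 15.6% and 16.9% of all genes tested. With G2/M cells only, 37 members were lower and 4 higher above 0.8, against 1754 and 1614 of 10820 genes. Whether phase contributed to the range results was not tested.

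Between the libraries there is no test, since each is 1 sample. The members took 2.24% of UMIs in library 1 and 2.17% in library 2, a log2 ratio of -0.048 (counting interval -0.055 to -0.042). The mt- genes took 2.86% and 3.75%, a log2 ratio of 0.39 (0.388 to 0.398). Of 75 members with a mean of at least 20 CPM, 1 differed by over 1.5 times, against 1.96% of 5804 genes that were lower and 3.43% that were higher in library 2. That member was Ndufa4, at 2005 CPM against 1282 CPM in library 2 (ratio 0.64, counting interval 0.629 to 0.650). Without Ndufa4, a choice made after the data were seen, the members took 2.04% in both libraries, a log2 ratio of -0.0013. With Ndufa4 included, the members took less in library 2 within each range. The shares were 2.43% against 2.54% under 0.4, 2.19% against 2.38% from 0.4 to 0.8 and 2.05% against 2.16% above 0.8. Cells under 0.4 numbered 663 in library 1 and 959 in library 2. The part of this mix in the ratios was not tested. Raw levels of Ndufa4 in libraries 1 and 2 were 1702 and 1197 CPM under 0.4. They were 2001 and 1226 CPM from 0.4 to 0.8 and 2094 and 1329 CPM above 0.8. Shares without Ndufa4 were not computed by range, so the near-equal totals without it do not show equal shares within ranges. The nuclear log2 ratios by complex were 0.0056 for complex I, -0.055 for complex III, -0.16 for complex IV, which holds Ndufa4, and 0.013 for complex V.

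The remaining 74 members had log2 ratios of at most 0.31 in size. Of the 75 members 44 had a ratio below 0 and 31 above 0. Over all 5804 genes compared, 40.0% had a log2 ratio below 0, and the median was 0.053. Of the 13 mt- genes 12 were higher in library 2, most of all mt-Cytb at 2273 and 3900 CPM (ratio 1.72, counting interval 1.70 to 1.74). mt-Nd6, the gene on the light strand of mitochondrial DNA, was lower, at 44.3 and 30.5 CPM. The RNA quality set summed to 23760 and 20000 CPM over all kept cells, and its part in these differences was not tested.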

How the data were processed

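Single-cell UMI counts of sorted GFP+ corneal epithelial cells were analysed. The deposited counts are whole numbers of UMIs per gene and barcode, for 31053 genes and 6752 barcodes. The submitters' processing notes name Cell Ranger 3.1.0, Seurat 5.0.0 and GRCm38 (mm10). Annotation, cell calling, treatment of reads that match several gene copies and any equalising of depth were not given in the sources used here. Many respiratory chain genes have near-identical pseudogene copies, so their counts may be incomplete.

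Of all barcodes, 475 had fewer than 500 genes and 311 had at least 20% mt- UMIs. Scrublet (scanpy 1.11.5, expected rate 3%) marked 5 of 6188 kept cells (0.0808%), which cannot count as a working doublet call, and doublets were therefore left in. Phases came from scanpy's cell cycle scores (43 S and 54 G2/M genes). Counts were summed per library and range or phase and tested with edgeR 4.0.16 (quasi-likelihood, robust, TMM, filterByExpr, library as a block because each library gives every sum, 2 residual degrees of freedom). Adjusted p-values are Benjamini-Hochberg values over all genes tested, threshold 0.05. Standard errors (SE) were derived from the test, as the size of the log2 fold change over the square root of the F value. DESeq2 1.42.0 was an alternative. Krt12, Krt15 and the phase lists were left out of the calls in their own comparison. Normalised CPM are counts over TMM-scaled library totals. UMIs of a 3' kit count molecule ends and were not divided by gene length. With library as a block, the p-values measure how far differences between ranges or phases vary between these 2 libraries only. That variation may be technical, and level differences between the libraries are not part of it.

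Members named were the 12 largest fold changes per direction past the threshold (6 for phase) that shared a sign across the libraries at 20 CPM or more, the 10 most abundant, paralog sets, mt- genes and, between libraries, ratios past 1.5. Other lists had up to 5 per direction. Members and lists were chosen with earlier results of these data known. On simulated data with a log2 change of 1 in 200 genes, the range fit recovered 99.5% and called 15 other genes of 11006, and the phase fit recovered 100.0% and called 8 of 10477. The simulation changed only genes of at least 20 CPM and held no difference between libraries. Recovery of smaller changes, such as the members' median of -0.20 in the range fit, was not tested. Alternatives left out the block, filter or middle range, changed scaling, cell filters, limits and depth (cells thinned to 1900 UMIs), or left out a library. The values of 1 member are not reported here, though it is included in the counts.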

Additional observations from a re-analysis of the deposited data

How the results depend on the processing

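Members lower above a Krt12 share of 0.8 numbered 30 to 42 in each alternative other than no library block (9 lower, 0 higher) and DESeq2 (18 lower, 0 higher), where the main counts were 39 and 4. Over all 11138 genes, lower calls numbered 1884 in the main fit, 864 without the block and 983 with DESeq2. The cause was not tested. Leaving out a library leaves no residual degrees of freedom, so it gave fold changes only. For phase, against 2 higher and 2 lower, no replicate block, DESeq2, thinned cells and cells above 0.8 alone each gave 1 and 0, scaling by total UMIs gave 1 lower, and phases from scaled values gave 3 and 3.

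The log2 ratio of the nuclear share (-0.240) was -0.257 without mt- UMIs, -0.229 without Krt12 and Krt15, -0.229 with at least 1500 genes and -0.247 with limits 0.3 and 0.9, and single libraries gave -0.236 and -0.245. For the mt- share (-0.440) it was -0.521 with at least 1500 genes and -0.485 as a median per cell, and single libraries gave -0.411 and -0.470. Between libraries, the nuclear ratio (-0.0485) was -0.0351 without mt- UMIs, -0.0629 with at least 1500 genes, -0.0313 as a median per cell and -0.0013 without Ndufa4. The mt- ratio (0.393) was 0.402 at a limit of 10%, 0.416 without a limit and 0.451 with at least 1500 genes.

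Of genes that did not pass, Atp5j changed sign with at least 1500 genes (0.0010), thinned cells (0.0272) and without Krt4 or Krt13 cells (0.0230), Cox7a2 with thinned cells (0.0124) and mt-Nd2 with at least 1500 genes (-0.0147). Among named genes in the range comparison, 1158 values over genes and settings were labelled the same as in the main fit, 140 weaker and 9 stronger. The 1158 also hold genes without a call in the main fit, so they do not count calls that were kept. Where a library was left out, there was no p-value by which a call could be kept or lost. Isoforms with few UMIs could not be tested. Alternatives added after seeing the data were phases from scaled values, leaving out cells with Krt4 or Krt13 and leaving out Ndufa4.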

Other observations

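Of 77 tested mitochondrial ribosomal protein genes 10 were lower (12.99%) and 4 higher (5.19%) above a Krt12 share of 0.8 than under 0.4 (edgeR), both shares below the 16.9% and 15.6% of all genes tested, with a median log2 fold change of -0.04. Mrps10, a small-subunit protein, rose from 48.3 and 39.4 CPM to 90.8 and 73.7 CPM in libraries 1 and 2 (log2 fold change 0.91, SE 0.11, edgeR adjusted p 1.94e-07). Mrpl39 (0.39), Mrpl40 (0.31) and Mrps33 (0.27) were higher too, while Mrps15 (-0.46), Mrpl38 (-0.45), Mrpl48 (-0.41), Mrpl4 (-0.38) and Mrps17 (-0.36) were lower. Of 39 tested genes for protein import and the inner membrane 10 were lower (25.6%) and 1 higher (2.56%). Chchd10, a protein of the mitochondrial intermembrane space, fell from 105 and 134 CPM to 43.9 and 39.8 CPM (log2 fold change -1.52, SE 0.12, edgeR adjusted p 5.84e-10). The import proteins Timm8a1 (-0.53), Tomm5 (-0.49) and Timm9 (-0.42) and the fusion protein Opa1 (-0.39) were lower, and Timm17b (0.33) was higher.

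Of 19 tested glycolysis genes 3 were higher (15.8%) and 4 lower (21.1%), near the shares of all genes tested. The glucose transporter Slc2a1 rose from 40.3 and 23.1 CPM to 78.2 and 58.6 CPM (log2 fold change 1.14, SE 0.13, edgeR adjusted p 2.88e-08), and the pyruvate kinase Pkm rose by 0.25. The hexokinases Hk1 (-0.83) and Hk2 (-0.95) and the phosphofructokinases Pfkl (-0.43) and Pfkp (-1.13) were lower.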
